A study of Homo sapiens with 24 samples.

Results

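The SRC family kinases are tyrosine kinases that sit on the inner face of the plasma membrane and pass signals from receptors, integrins and adhesion sites. The members FGR, SRC, FYN, YES1, LYN, LCK and FRK were taken by name from the count table, which gives 7 of its 57736 genes, and all 7 were present. The list was chosen by measured values of these libraries, with earlier results known, and FGR, which was found almost only with etoposide, is the gene it is named for. The behaviour of FGR is therefore given as a description with no test, and tests are given for the other 6 members.

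The data are counts of RNA 3′ ends from U87-T cells, a human glioblastoma line (U87) into which a TERT transgene was introduced, in 24 libraries of 8 groups with 3 replicates each. A DAXX series compares WT with DAXX_KO and an ATRX series compares WT with ATRX_KO, and each series has its own WT libraries. The WT cells carry an empty Cas9 lentiviral vector and the TERT transgene. DAXX and ATRX are partners that deposit histone H3.3, and each knockout is 1 single-cell clone made with CRISPR guides and selected for features of alternative lengthening of telomeres, so that the loss of the gene and the history of the clone cannot be told apart. In each series, WT and knockout cells were collected as control (untreated) and after etoposide, which traps topoisomerase II on DNA and causes breaks, at a dose and time not given in the sources used here for these libraries. TERT mRNA was found in all 24 libraries. DAXX mRNA was 33.7 ± 1.30 CPM (SD, n = 3) in WT control cells and 5.80 ± 1.06 in DAXX_KO, and ATRX mRNA was 191 ± 4.62 CPM in WT control cells of the ATRX series and 80.5 ± 6.07 in ATRX_KO. The tag for genotype calls the DAXX_KO libraries ATRX knockouts, but their ATRX mRNA was 385 ± 26.8 CPM against 227 ± 13.9 in WT, and their titles were followed.

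In their closed form these kinases are held inactive by a phosphorylated tyrosine in the tail, which CSK adds and phosphatases such as PTPRA remove. SRC, FYN and YES1 are made in most tissues, FGR, LYN and BLK are best known from myeloid and B cells, LCK from T cells, and FRK from epithelia. In glioblastoma, SRC and FYN have been studied as relays of growth factor receptors and of invasion. Levels below are CPM, the usual depth-scaled read counts, with library totals scaled by TMM. The reads come from the 3′ end of a transcript, and levels are compared between groups and not between genes. A difference is called when it passes an FDR of 5% in edgeR's quasi-likelihood test with Benjamini-Hochberg adjustment over all genes tested. The study calls its replicates biological in general terms, but the labels do not say that these libraries came from separate cultures, and p-values measure the spread between these libraries.

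FGR (ENSG00000000938) lies on the minus strand of chromosome 1, from 27938575 to 27961696 in GRCh37. RefSeq starts its transcripts at 2 places, and the 250 bases before each start are shown because FGR went from near 0 to clearly detected within these libraries. The sequences are those of the RefSeq promoter table (GRCh38), located by exact match in GRCh37, and are printed 5′ to 3′ on the strand of the gene, with no capitals because no motif was found.
FGR upstream start, chr1:27961697-27961946: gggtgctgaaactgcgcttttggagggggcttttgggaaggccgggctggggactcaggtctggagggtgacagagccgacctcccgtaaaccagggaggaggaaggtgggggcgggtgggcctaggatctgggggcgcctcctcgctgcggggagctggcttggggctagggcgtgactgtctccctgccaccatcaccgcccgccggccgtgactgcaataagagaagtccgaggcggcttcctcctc
FGR downstream start, chr1:27953109-27953358: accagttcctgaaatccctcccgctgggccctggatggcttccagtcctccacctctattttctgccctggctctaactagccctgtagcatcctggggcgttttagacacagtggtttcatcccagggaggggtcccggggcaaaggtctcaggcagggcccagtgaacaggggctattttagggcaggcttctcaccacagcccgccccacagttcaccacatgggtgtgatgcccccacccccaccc
The p53 half-site consensus and TGANTCA, the AP-1 site, were searched on both strands of the 300 bases around each start. Neither was found in the FGR windows, while 6.63% of 35116 such windows of all genes hold the p53 half-site and 7.71% hold TGANTCA. Of the windows of FYN, LCK, YES1 and FRK in the same table, 1 of FRK held a p53 half-site and none held TGANTCA. No match says only that these letters are not in the window.

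FGR was almost silent in control cells and present in all 12 libraries with etoposide. In WT control cells of the DAXX series it had 0, 0 and 0 counts, and in DAXX_KO control cells 1, 0 and 0. With etoposide it had 15, 22 and 7 counts in WT and 74, 85 and 109 in DAXX_KO. The control libraries were at the limit of detection in both genotypes, and with etoposide each DAXX_KO library was above each WT library. In WT control cells of the ATRX series FGR had 0, 1 and 2 counts, and in ATRX_KO control cells 0, 2 and 2. With etoposide it had 88, 75 and 67 counts in WT and 219, 264 and 256 in ATRX_KO. Again no library of the knockout overlapped with WT under etoposide.

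**Figure D1:**
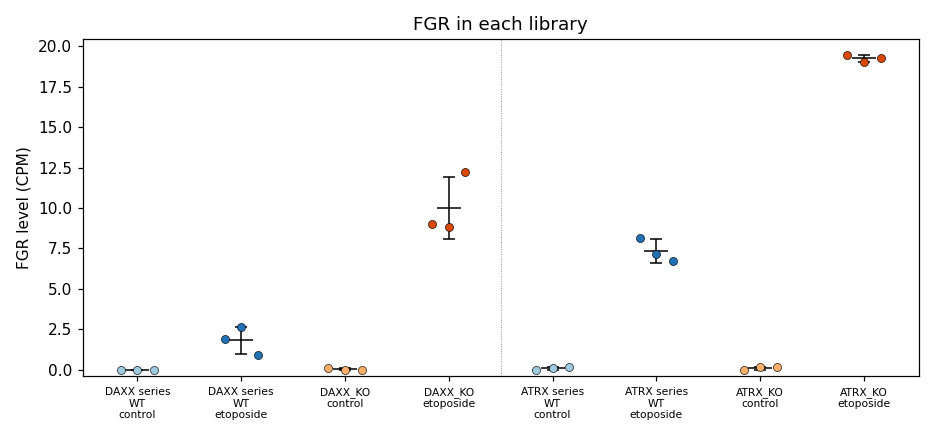
FGR level in CPM (vertical axis, linear) in each of the 24 libraries, by group, with the 3 points of a group offset sideways only for visibility. Bars give the mean and SD of 3 libraries. Control libraries lie between 0 and 0.169 CPM, and the etoposide means are 1.82 (WT) against 10.01 (DAXX_KO) and 7.33 (WT) against 19.3 (ATRX_KO).

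Under etoposide the mean FGR level was 1.82 ± 0.845 CPM in WT (SD, n = 3) and 10.01 ± 1.91 in DAXX_KO, a ratio of 5.50 between the means. The lowest DAXX_KO library was 3.34 times the highest WT library. In ATRX_KO it was 19.3 ± 0.213 CPM against 7.33 ± 0.722 in WT, a ratio of 2.63, and the lowest ATRX_KO library was 2.34 times the highest WT library. Both knockouts thus had more FGR mRNA than their own WT under etoposide, by 2.43 (DAXX) and 1.39 (ATRX) on the log2 scale. Groups did not overlap for 58.4% of all genes in this comparison of the DAXX series and for 54.8% in that of the ATRX series, so a lack of overlap alone sets no gene apart. The genes around FGR on chromosome 1 had a median difference of −0.19 and −0.09 in these comparisons, counted over 60 tested genes. Control cells of either genotype were at or under 3 counts, the limit that a count of 0 allows (0.233 to 0.394 CPM in control libraries, for counting error only). No ratio between knockout and WT is given there. FGR also differed between the WT groups with etoposide, whose labels name no difference beyond the series. The ATRX-series WT libraries read 6.72 to 8.13 CPM, against 0.945 to 2.63 for the DAXX-series WT. As a ratio of means this gap was wider than that between ATRX_KO and its WT, and narrower than that between DAXX_KO and its WT. Its cause was not tested, so each knockout is read only against its own WT.

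The difference between etoposide and control is given as a bound or a ratio of counts. In WT cells of the DAXX series, with 0 counts in control, FGR was at least 5.48-fold higher with etoposide, against a floor of 3 counts per library. In DAXX_KO the 268 counts with etoposide against 1 in control gave a ratio of 240 with an exact 95% interval of 42.7 to 9520, which covers counting error only. In WT of the ATRX series 230 counts stood against 3, a ratio of 89.4 (30.2 to 437). ATRX_KO had 739 counts against 4, a ratio of 174 (67.5 to 639). The wide intervals come from the few counts in control, and they describe counting error without being a test, since FGR was chosen for this pattern. The single control count of DAXX_KO was in replicate 1, so without that library no ratio can be given. Leaving out 1 library at a time moved the ratio between 57.9 and 181 in WT of the ATRX series, both by a control library, and between 118 and 232 in ATRX_KO. As a check that etoposide acted in both genotypes, CDKN1A, the p53-induced inhibitor of the cell cycle, was 148 ± 8.41 CPM in WT control cells of the DAXX series and 5632 ± 134 with etoposide, and 208 ± 6.30 and 5709 ± 409 in DAXX_KO. In the ATRX series CDKN1A went from 159 ± 2.58 to 6040 ± 29.4 CPM in WT and from 212 ± 15.03 to 2766 ± 126 in ATRX_KO. FGR and CDKN1A thus ordered the groups differently under etoposide, since CDKN1A was not above WT in ATRX_KO.

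The genes whose level was most like that of FGR were FICD, S1PR4, DMTN, TACR2 and DEFB1. Likeness was measured by Pearson's r of log2 CPM over the 24 libraries among 15039 genes that passed the filter in both series. The r was 0.985 for FICD, 0.974 for S1PR4, 0.964 for DMTN, 0.962 for TACR2 and 0.960 for DEFB1. The libraries fall into control and etoposide clusters, so r only ranks these genes. FICD, an enzyme that modifies the chaperone BiP, was 24.4 CPM in WT control cells of the DAXX series, 54.8 with etoposide, 25.5 in DAXX_KO control cells and 85.6 in DAXX_KO with etoposide. In the ATRX series the FICD means were 28.3, 86.0, 32.1 and 129 CPM in the same order. The other 4, among them the leukocyte receptor S1PR4 and the neurokinin receptor TACR2, were at 0.0846 CPM or less in control groups. With etoposide mean DMTN was 1.98 CPM in WT and 4.90 in DAXX_KO, but 4.78 in WT and 4.48 in ATRX_KO, unlike FGR. The etoposide means of S1PR4, TACR2 and DEFB1 were higher in both knockouts than in their own WT. None of these was compared by a test. Among the members, r with FGR was lowest for YES1 (−0.78) and highest for LCK (0.49).

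FGR is a leukocyte kinase, and the markers of leukocytes were therefore read beside it. Their summed level over 14 markers was 5.47 to 10.3 CPM in control libraries and 9.64 to 15.8 with etoposide, and between 5 and 12 of the 14 were at or under 3 counts in all libraries of a group. Of these markers SPI1, AIF1, TYROBP and CD3E had 0 to 3 counts in every library. Most of the sum came from CSF1R and LAPTM5. Other markers had more counts with etoposide, and not in the same groups. PTPRC, the leukocyte antigen CD45, had 1 to 2 counts in WT control cells of the DAXX series and 7 to 14 with etoposide. In ATRX_KO the tetraspanin CD53 had 0 to 1 counts in control and 6 to 13 with etoposide, CD79A of the B cell receptor had 2 to 3 and 8 to 11, and CD3D of the T cell receptor had 5 to 7 and 11 to 15. ITGAM, the integrin chain of myeloid cells, had 0 or 1 counts in control libraries and 2 to 26 with etoposide. Of the endothelial markers, CDH5 had at most 3 counts, and VWF had 0 to 2 in control libraries and 3 to 14 with etoposide. The glioma markers VIM, CD44 and NES were expressed in all libraries, while S100B was at 0 and GFAP at 0 to 6 counts. Mean SOX2 in control libraries was 1.60 CPM (WT) against 0.335 (DAXX_KO), and 4.26 (WT) against 0.112 (ATRX_KO). OLIG2 had 0.741 against 0 and 0.593 against 0.141, and CHI3L1 0.473 against 3.00 and 1.61 against 5.56. In control libraries of DAXX_KO 4 of 5 tested glioma markers were called lower and 1 higher, beside 53.4% of all genes called in either direction. In those of ATRX_KO 5 of 6 were lower and 1 higher, beside 41.8%. With etoposide in WT 3 were lower and 0 higher (DAXX series) and 4 lower and 2 higher (ATRX series). Of the 14 leukocyte markers 2 were tested in the DAXX series and 5 in that of ATRX. With etoposide 0 of 2 were called in WT of the DAXX series, 1 was higher and 1 lower in DAXX_KO, 3 of 5 were higher in WT of the ATRX series and 2 of 5 in ATRX_KO. Of all genes tested 60.3%, 54.7%, 61.5% and 49.5% were called in these comparisons. A marker such as ITGAM, with 0 or 1 counts in control, could pass the filter only through etoposide libraries. Its direction was thus fixed in advance, and these calls are given as a description. The part of other cells in the FGR counts was not tested.

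The list of related kinases outside the 7 held 3 genes. SRMS, a relative of FRK, had 0 counts in all libraries. PTK6, an epithelial kinase, and BLK, a B cell kinase, were tested and called in neither knockout, with differences in control cells of 0.10 and 0.58 in DAXX_KO and 0.38 and −0.61 in ATRX_KO on the log2 scale.

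Among the 6 tested members, SRC and FYN were higher in both knockouts, YES1 fell with etoposide in all 4 cell populations, and LYN differed between the knockouts in direction. In control cells 4 of 6 members were called in DAXX_KO, of which 3 were higher (SRC, FYN and FRK) and 1 lower (LYN). Of all 15247 genes tested 53.4% were called in this comparison, and 26.9% were called higher. In ATRX_KO 5 of 6 members were called and all 5 were higher (SRC, FYN, YES1, LYN and LCK), against 41.8% of 16371 genes called in either direction and 20.8% called higher. The LCK call rests on 4 counts in WT control cells, and its direction was partly fixed by the filter, as given below. The median difference of the 6 members was 0.80 in DAXX_KO and 0.85 in ATRX_KO, beside 0.02 and 0.02 over all genes tested.

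**Figure D2:**
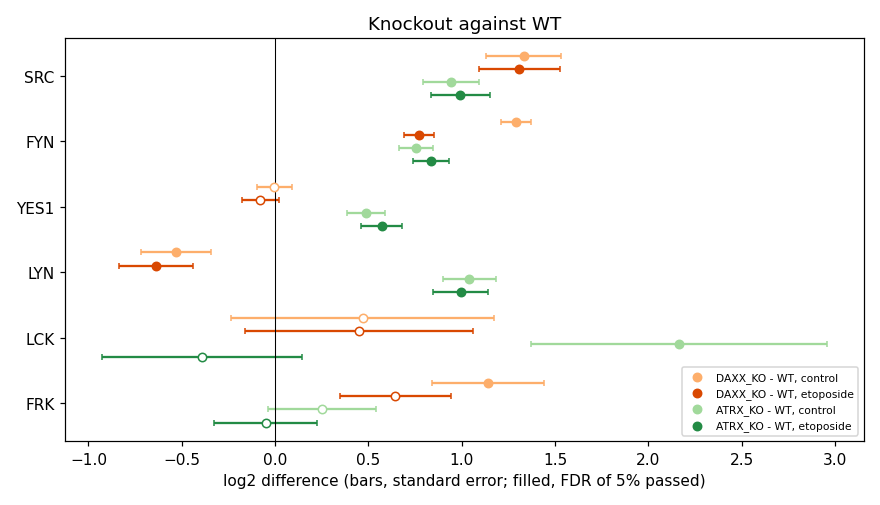
Log2 difference between knockout and WT (horizontal axis) for the 6 tested members, in control cells and with etoposide. Points are edgeR estimates, bars are standard errors, and filled points passed an FDR of 5%. SRC and FYN lie to the right in all 4 comparisons, LYN lies at −0.53 and −0.64 in DAXX_KO and at 1.04 and 0.99 in ATRX_KO, and the LCK estimates rest on 1 to 16 counts per library.

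SRC (ENSG00000197122, chromosome 20, 35973088 to 36034453, plus strand), the founding member of the family, had 6.12, 4.91 and 4.41 CPM in WT control cells of the DAXX series and 11.1, 12.7 and 15.3 in DAXX_KO. The groups did not overlap, and SRC was higher in DAXX_KO by 1.33 on the log2 scale (SE 0.20, adjusted p = 1.58e-05), a fold of 2.52. SRC in the ATRX series had 5.59, 6.36 and 6.93 CPM in WT control cells and 12.1, 11.2 and 13.0 in ATRX_KO, again with no overlap, and was higher by 0.94 (SE 0.15, adjusted p = 7.25e-05). With etoposide the libraries read 5.15, 3.11 and 4.46 CPM in WT of the DAXX series, and 9.14, 9.52 and 12.8 in DAXX_KO. Those of the ATRX series read 5.63, 4.29 and 5.21 in WT and 10.6, 9.67 and 9.94 in ATRX_KO. SRC stayed higher than WT in both knockouts under etoposide, by 1.31 (SE 0.22, adjusted p = 4.12e-05) and by 0.99 (SE 0.16, adjusted p = 6.12e-05). Etoposide itself gave differences of −0.27 to −0.32 in the 4 populations, none of which was called, although without replicate 3 of DAXX_KO with etoposide that in DAXX_KO was −0.49 (adjusted p = 0.0496). The effects of the 2 knockouts differed by 0.39 (SE 0.25, adjusted p = 0.249), which is within the error. The genes around SRC on chromosome 20 had a median difference of 0.43 in DAXX_KO control cells, counted over 60 genes, and SRC was 0.90 above that median. In ATRX_KO the median of these neighbours was 0.03.

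FYN (ENSG00000010810, chromosome 6, 111981535 to 112194655, minus strand), which acts in T cells, myelin-forming cells and neurons, had 46.7, 49.4 and 49.0 CPM in WT control cells of the DAXX series and 120, 113 and 122 in DAXX_KO. All DAXX_KO libraries were above all WT libraries, and the log2 difference was 1.29 (SE 0.08, adjusted p = 7.71e-11). FYN in the ATRX series had 56.4, 54.0 and 55.5 CPM in WT and 79.99, 92.7 and 107 in ATRX_KO, a difference of 0.75 (SE 0.09, adjusted p = 4.70e-06), also without overlap. The effect of DAXX_KO was larger than that of ATRX_KO by 0.54 (SE 0.12, adjusted p = 0.00108). With etoposide FYN had 43.6, 40.0 and 43.3 CPM in WT of the DAXX series and 66.8, 79.7 and 69.8 in DAXX_KO. The ATRX series had 37.1, 37.7 and 40.4 in WT and 66.6, 70.8 and 67.8 in ATRX_KO. FYN thus remained higher in both knockouts under etoposide, by 0.77 (SE 0.08, adjusted p = 1.82e-07) and 0.83 (SE 0.10, adjusted p = 2.04e-06). It fell with etoposide by 0.71 (SE 0.08) in DAXX_KO, by 0.45 (SE 0.09) in ATRX_KO and by 0.53 (SE 0.10) in WT of the ATRX series, with adjusted p of 1.71e-07, 0.000586 and 0.000147. In WT of the DAXX series the difference was −0.19 (SE 0.08, adjusted p = 0.0529) and was not called, although 3 other processing settings, and leaving out any of 4 DAXX_KO libraries, took it past the threshold. FYN was the only member called for an interaction of genotype and etoposide, with −0.52 in the DAXX series (SE 0.11, adjusted p = 0.00418), where 14.1% of all genes were called.

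YES1 (ENSG00000176105, chromosome 18, 721588 to 812547, minus strand), a ubiquitous member close to SRC, had 62.7, 64.0 and 62.1 CPM in WT control cells of the DAXX series and 67.0, 61.2 and 60.2 in DAXX_KO. The groups overlapped, and the difference was −0.003 (SE 0.09, adjusted p = 0.980). YES1 in the ATRX series had 58.4, 64.0 and 62.0 CPM in WT and 78.4, 82.8 and 96.9 in ATRX_KO, higher by 0.49 (SE 0.10, adjusted p = 0.000998) with no overlap. The effects of the 2 knockouts differed by −0.49 (SE 0.14, adjusted p = 0.00881), and by −0.37 (adjusted p = 0.0511) when libraries were scaled by their totals alone. With etoposide YES1 had 35.1, 39.0 and 36.6 CPM in WT of the DAXX series and 34.9, 40.2 and 29.6 in DAXX_KO. The ATRX series had 33.8, 28.04 and 30.8 in WT and 40.1, 51.4 and 45.9 in ATRX_KO. Every etoposide library was below every control library of the same cells. YES1 fell by 0.77 (SE 0.10) in WT and by 0.85 (SE 0.10) in DAXX_KO, and by 0.99 (SE 0.11) in WT and 0.91 (SE 0.10) in ATRX_KO, with adjusted p of 8.95e-07, 3.56e-07, 5.02e-07 and 1.56e-06. It was the only member called with etoposide in all 4 populations. Under etoposide YES1 stayed higher in ATRX_KO than in WT by 0.57 (SE 0.11, adjusted p = 0.000384), and in DAXX_KO the difference was −0.08 (SE 0.10, adjusted p = 0.533).

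LYN (ENSG00000254087, chromosome 8, 56792394 to 56926728, plus strand), known from B cell and myeloid receptors, had 8.40, 7.54 and 8.82 CPM in WT control cells of the DAXX series and 6.36, 5.12 and 5.61 in DAXX_KO. The log2 difference was −0.53 in DAXX_KO, downward (SE 0.19, adjusted p = 0.0215), and the groups did not overlap. This call was lost with library totals alone (−0.35, adjusted p = 0.116) and without replicate 1 or 3 of WT or replicate 2 or 3 of DAXX_KO (adjusted p 0.0540 to 0.0794). LYN in the ATRX series had 5.90, 6.95 and 6.51 CPM in WT and 12.8, 14.1 and 12.9 in ATRX_KO, higher by 1.04 (SE 0.14, adjusted p = 1.52e-05). The effects of the 2 knockouts differed by −1.57 (SE 0.21, adjusted p = 1.86e-06). With etoposide LYN had 6.78, 6.82 and 6.35 CPM in WT of the DAXX series and 4.14, 3.42 and 5.27 in DAXX_KO. The ATRX series had 6.93, 5.44 and 5.31 in WT and 11.6, 12.05 and 11.7 in ATRX_KO. The directions of control cells held under etoposide, with −0.64 in DAXX_KO (SE 0.20, adjusted p = 0.0106) and 0.99 in ATRX_KO (SE 0.15, adjusted p = 2.96e-05). Without replicate 2 of DAXX_KO with etoposide the former was −0.49 (adjusted p = 0.0578). LYN passed the threshold for etoposide in none of the 4 populations, with differences of −0.13 to −0.42. In DAXX_KO it was called with library totals alone (−0.53, adjusted p = 0.0296), with all 24 libraries in 1 model (−0.43, adjusted p = 0.0397) and without replicate 3 of DAXX_KO with etoposide (−0.60, adjusted p = 0.0264).

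**Figure D3:**
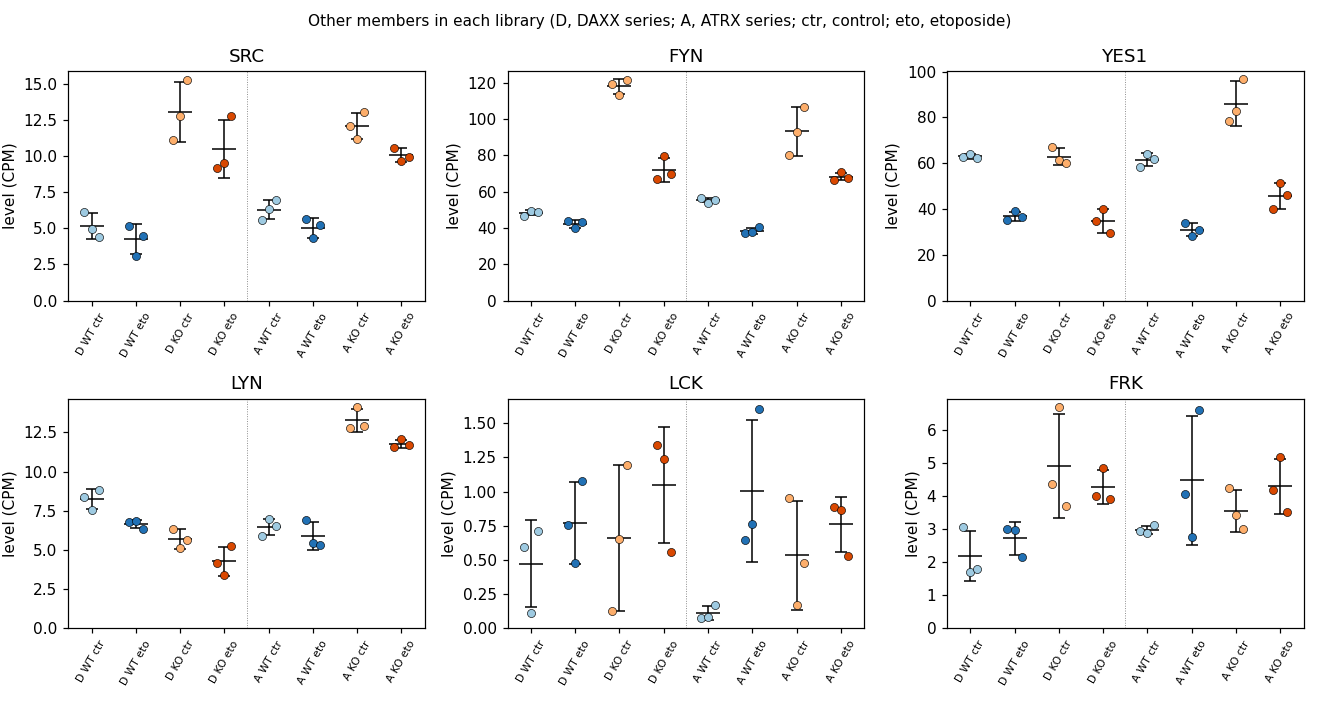
Levels in CPM (vertical axes, linear, from 0, with a different range per gene) of the 6 tested members in each library, by group. Bars give the mean and SD of 3 libraries. SRC and FYN are higher in both knockouts, YES1 is lower with etoposide in every pair of groups, and LYN separates the knockouts, at 5.70 CPM in DAXX_KO and 13.3 in ATRX_KO control cells.

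FRK (ENSG00000111816, chromosome 6, 116252312 to 116382054, minus strand), which is usually placed beside PTK6 and SRMS at the edge of the family, had 3.06, 1.71 and 1.79 CPM in WT control cells of the DAXX series and 4.37, 6.70 and 3.70 in DAXX_KO. The groups did not overlap, and FRK was higher by 1.14 (SE 0.30, adjusted p = 0.00314). In the ATRX series it had 2.95, 2.88 and 3.13 CPM in WT and 4.26, 3.42 and 3.01 in ATRX_KO, an overlapping pair with a difference of 0.25 (SE 0.29, adjusted p = 0.520). The difference between the 2 effects was 0.89 (SE 0.42, adjusted p = 0.106) and was not called, but it was 1.22 (adjusted p = 0.0410) without replicate 1 of WT control cells of the DAXX series. With etoposide FRK had 3.02, 2.99 and 2.16 CPM in WT of the DAXX series and 4.02, 4.87 and 3.92 in DAXX_KO, a difference of 0.64 (SE 0.30, adjusted p = 0.0753). The ATRX series had 4.06, 2.77 and 6.61 in WT and 4.18, 5.19 and 3.54 in ATRX_KO, a difference of −0.05 (SE 0.28, adjusted p = 0.895). No etoposide difference of FRK was called. In WT of the ATRX series it passed with at least 10 counts in every library (0.65, adjusted p = 0.0490) and without replicate 2 of WT with etoposide (0.81, adjusted p = 0.0191). On the annotation 1 gene overlaps the 3′ end of FRK, so its reads may be shared.

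LCK (ENSG00000182866, chromosome 1, 32716845 to 32751766, plus strand), the T cell kinase bound to CD4 and CD8, was near the limit of detection. In the DAXX series it had 6, 1 and 6 counts in WT control cells, 1, 5 and 10 in DAXX_KO, 6, 4 and 8 in WT with etoposide and 11, 12 and 5 in DAXX_KO with etoposide. These groups overlap, and no difference was called, with 0.47 (SE 0.70) between knockout and WT in control cells. In the ATRX series it had 1, 1 and 2 counts in WT control cells, 11, 2 and 6 in ATRX_KO, 7, 8 and 16 in WT with etoposide and 10, 12 and 7 in ATRX_KO with etoposide. The 4 counts of WT control cells carry both calls of LCK in this series. For ATRX_KO the ratio of counts was 4.80 (exact 95% interval 1.60 to 19.4, counting error only), with an adjusted p of 0.0371 in edgeR, overlapping groups, and 0.211 without replicate 1 of ATRX_KO. Leaving out any other single library of these groups apart from replicate 2 of ATRX_KO also lost it (adjusted p 0.0535 to 0.108), as did the replicate block (0.0543), so this call depends on single libraries. For etoposide in WT the ratio was 9.04 (3.20 to 35.3), with an adjusted p of 0.00166 in edgeR and no overlap. With 1, 1 and 2 counts in control, LCK could pass the filter only through other libraries, mainly those with etoposide. The direction of both calls was thus partly fixed in advance, and LCK was not tested with only the groups compared in the model.

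With etoposide 1 to 3 of the 6 members were called in each cell population, and a member that was not called may still have changed. In WT 1 of 6 was called in the DAXX series (YES1, lower), where 60.3% of all genes were called and 30.2% called lower, and 3 of 6 in the ATRX series (YES1 and FYN lower, LCK higher), where 61.5% were called and 29.8% called lower. The call of LCK has the filter limit given above. In DAXX_KO 2 of 6 were called (FYN and YES1, both lower) beside 54.7% of all genes and 27.5% called lower. ATRX_KO gave the same 2, both lower, beside 49.5% and 25.2%. The median of the 6 was −0.24 and −0.22 in WT and −0.37 and −0.22 in the knockouts, and between 0.00 and 0.07 over all genes tested. Under etoposide 3 of 6 members differed between DAXX_KO and WT (SRC and FYN higher, LYN lower), beside 53% of all genes and 27.8% called higher, and 4 of 6 between ATRX_KO and WT (SRC, FYN, YES1 and LYN, all higher), beside 45.9% and 23%.

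**Figure D4:**
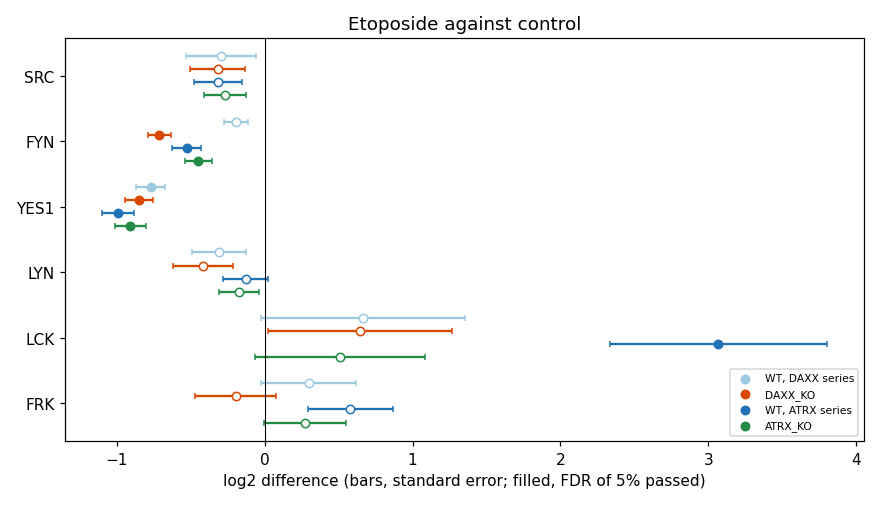
Log2 difference between etoposide and control (horizontal axis) for the 6 tested members in the 4 cell populations. Points are edgeR estimates, bars are standard errors, and filled points passed an FDR of 5%. YES1 lies between −0.77 and −0.99 in all 4, while SRC lies between −0.27 and −0.32 with no call.

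Among the members, as among all genes, differences between effects were called more often between the knockouts than for the response to etoposide. Of 6 members, 1 had an interaction of genotype and etoposide in the DAXX series (FYN), where 14.1% of all genes were called. The count was 0 in the ATRX series, where 16% of all genes were called. In the latter, 1 member (LCK) had an unadjusted p under 0.05 in edgeR and DESeq2 called 0. The knockouts differed from each other, each set against its own WT, for 3 of 6 members (FYN, YES1 and LYN), beside 34.1% of 16674 genes. WT control cells of the 2 series, which differ in nothing that the labels name, differed for 0 of 6 members, beside 13.2% of all genes. In that comparison 2 members (LYN and LCK) had an unadjusted p under 0.05 in edgeR, and DESeq2 called 0.

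Genes that act on SRC family kinases or are acted on by them were read from lists of 59 genes, also drawn up with results of these data known. In control cells 50 were tested in DAXX_KO, of which 18 were higher and 17 lower (70%, beside 53.4% of all genes tested), and 53 in ATRX_KO, of which 19 were higher and 14 lower (62.3%, beside 41.8%). The median difference was 0.06 and 0.02. With etoposide in WT 9 were higher and 23 lower of 50 (64%, beside 60.3% of all genes called and 30.2% called lower), and 8 higher and 25 lower of 53 (62.3%, beside 61.5% called and 29.8% called lower), with medians of −0.25 and −0.13. Both directions were thus found between knockout and WT, and with etoposide more of the listed genes were called lower than higher. The counts of the single lists are read against the same shares and are given as a description.

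Of 8 genes that restrain the kinases, 5 were tested in DAXX_KO, with 2 higher, and 6 in ATRX_KO, with 2 higher and 1 lower. CBLB, a ubiquitin ligase that marks active kinases for removal, had 29.4 ± 2.30 CPM (SD, n = 3) in DAXX_KO control cells against 12.3 ± 0.582 in their WT, higher by 1.26 (SE 0.11, adjusted p = 2.07e-08). With etoposide the order turned, with 20.7 ± 1.14 CPM in WT and 15.8 ± 1.70 in DAXX_KO, and the interaction was −1.65 (SE 0.16, adjusted p = 1.76e-06). In ATRX_KO CBLB was higher by 0.63 in control cells (SE 0.16, adjusted p = 0.00430). Its relative CBL rose by 0.21 in DAXX_KO. CSK, the kinase that closes the family by its tail tyrosine, was lower in ATRX_KO by 0.29 on the log2 scale (log2 difference −0.29, SE 0.10, adjusted p = 0.0320), and PAG1, the membrane adaptor that recruits CSK, was higher there by 0.25. Both fell with etoposide in WT, CSK by 0.61 (DAXX series) and 0.98 (ATRX series) and PAG1 by 1.32 and 0.83, while CBLB rose by 0.75 and 0.65.

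Of 8 phosphatases that remove phosphate from these kinases or their substrates, 6 were tested in DAXX_KO, with 1 higher and 1 lower, and 7 in ATRX_KO, with 2 higher and 2 lower. PTPRE, a receptor phosphatase that can open SRC, had 27.7 ± 0.457 CPM (SD, n = 3) in DAXX_KO control cells against 17.3 ± 0.982 in their WT, but 8.14 ± 0.630 in ATRX_KO against 18.6 ± 0.760 in its WT. The differences were 0.68 (SE 0.10, adjusted p = 1.78e-05) and −1.19 (SE 0.14, adjusted p = 3.38e-06), and they differed from each other by 1.87 (SE 0.16, adjusted p = 1.30e-09). PTPN11, the phosphatase SHP2, was lower by 0.23 in DAXX_KO (log2 difference −0.23) and higher by 0.22 in ATRX_KO. PTPN2 was higher (0.51) and PTPRJ lower (−0.51) in ATRX_KO. With etoposide in WT 4 of 6 and 4 of 7 phosphatases were called lower and 0 higher, beside 30.2% and 29.8% of all genes called lower. These were led by PTPRA, the phosphatase that frees the tail of SRC and FYN, with −0.97 and −1.37, and PTPN11 with −0.73 and −0.77.

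The substrates and partners were the largest list, with 34 genes. In DAXX_KO 13 were higher and 12 lower of 31 tested, and in ATRX_KO 12 were higher and 11 lower of 32. The largest differences in DAXX_KO were those of the adaptor DOK4 (1.78, SE 0.24) and the actin filament protein AFAP1 (1.73, SE 0.15), and downward those of ezrin, EZR (−0.85, SE 0.07), and the tensin TNS3 (−0.81, SE 0.21). In ATRX_KO they were those of the tensin TNS1 (2.01, SE 0.35) and the exchange factor VAV3 (1.84, SE 0.22), and downward those of caveolin-1, CAV1 (−1.38, SE 0.10), and the invadopodia scaffold SH3PXD2A (−1.06, SE 0.12). With etoposide in WT, STAT3, a transcription factor downstream of SRC, rose by 1.25 (DAXX series) and 1.20 (ATRX series), and the kinase PTK2B rose by 0.84 and 0.72. The adaptor NEDD9 rose by 1.19 in the ATRX series and differed by 0.78 in the DAXX series, where it was not called (adjusted p = 0.0816). VAV3 fell by 1.46 and 1.89 and ARHGAP35 by 1.35 and 1.56. VAV2 fell by 1.62 in the ATRX series, with overlapping groups, and differed by −0.92 in the DAXX series, where it was not called (adjusted p = 0.181). Of 31 and 32 substrates tested, 6 and 6 were higher and 14 and 17 lower with etoposide in WT, where 30.2% and 29.8% of all genes were called lower.

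The last list holds 6 genes for myristoylation, transport and folding, all tested. NMT1 and NMT2 attach the fatty acid that anchors the kinases in the membrane. In DAXX_KO NMT2 was higher by 1.15 (SE 0.09, adjusted p = 1.60e-09) and NMT1 lower by 0.63 on the log2 scale (log2 difference −0.63, SE 0.12, adjusted p = 0.000159), while in ATRX_KO NMT1 was higher by 0.48 (SE 0.11, adjusted p = 0.00159) and the NMT2 difference was −0.14 (adjusted p = 0.229). The chaperone HSP90AA1 was lower in DAXX_KO (−1.11, SE 0.07), and it fell with etoposide in WT by 1.13 and 1.22. UNC119, a carrier of myristoylated proteins, was higher in both knockouts (0.65 and 0.40). The cochaperone CDC37 rose with etoposide in WT by 0.61 and 0.60, and NMT2 fell by 0.51 and 0.85. Together 2 were higher and 4 lower in DAXX_KO, 3 higher and 0 lower in ATRX_KO, and the medians were −0.36 and 0.21.

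**Figure D5:**
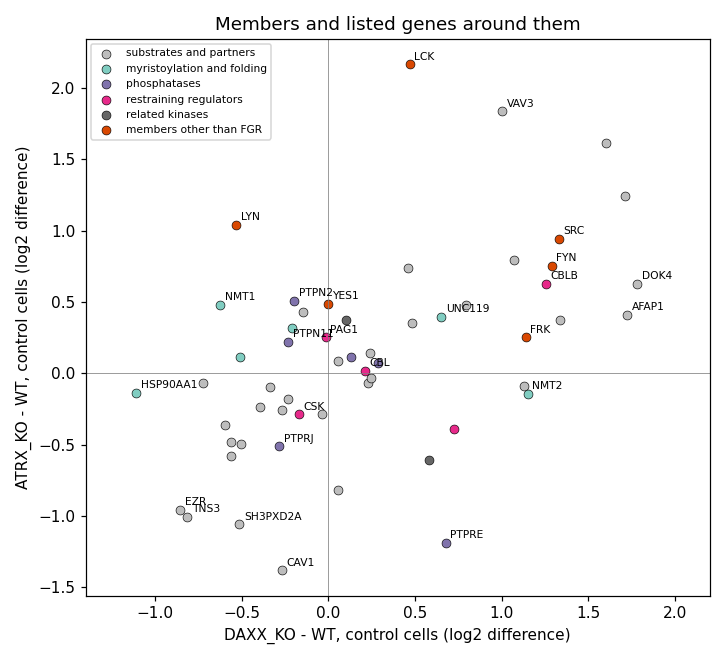
Log2 difference between knockout and WT in control cells, DAXX_KO on the horizontal and ATRX_KO on the vertical axis, for the 6 tested members and the listed genes tested in both series. Each point is 1 gene, colours give the list, and names mark the members and the genes named by rule. SRC and FYN lie in the upper right, LYN in the upper left at −0.53 and 1.04, and PTPRE in the lower right at 0.68 and −1.19.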

How the data were processed

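RNA was measured in 24 libraries of U87-T cells. The deposited values are estimated counts per gene, made by the authors with QuantSeq 3′ libraries, 75-base single-end reads, STAR alignment to hg19 and RSEM on the Ensembl GRCh37 annotation, and given as whole numbers that were used without rounding. The strand setting is not given in the sources used here. Totals ranged from 6928950 to 13298557. Symbols matched 55501 of 57736 gene IDs, which hold 98.8% of the counts.

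Libraries were scaled by TMM and tested with edgeR 4.0.16 in R 4.3.3 (quasi-likelihood, filterByExpr with minimum count 10 and total 15) in 1 model of 12 libraries and 4 groups per series (15247 and 16371 genes tested), and of all 24 libraries between series (16674 genes). The standard error is the log2 difference divided by the root of F. A gene is called at an FDR of 5% (Benjamini-Hochberg over all genes tested). The study used a negative binomial model in DESeq2, and DESeq2 1.42.0 was an alternative here, with other scalings, filters, models, a replicate block, neighbour centring and single libraries left out. The code was tested on simulated data.

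The members, gene lists, tests and alternatives were chosen with earlier results of these data known. The text names the 7 members, DAXX and ATRX, the 5 genes with the highest r to FGR, and from each list up to 2 higher and 2 lower called genes with the largest fold in each comparison of knockout with WT in control cells and of etoposide with control in WT. CDKN1A, TERT and the marker genes were added to this rule. The smallest chi-square per degree of freedom over 24 replicate pairs was 2.16, so replicates differ by more than counting error. Replicate numbers pair no libraries, since correlations of deviations ranged from −0.29 to 0.06 over 36 comparisons.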

Additional observations from a re-analysis of the deposited data

Results flagged for a closer look

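The effect of DAXX_KO differed from that of ATRX_KO in control cells for 3 members, each tested in a model of all 24 libraries with each knockout set against its own WT. The difference was 0.54 for FYN (adjusted p = 0.00108), −0.49 for YES1 (adjusted p = 0.00881) and −1.57 for LYN (adjusted p = 1.86e-06, edgeR). FYN was higher in both knockouts and more so in DAXX_KO, in 3 of 3 libraries each, and YES1 was higher in ATRX_KO only. LYN was higher in ATRX_KO and lower in DAXX_KO, where the call was less firm. That call was lost with library totals alone (adjusted p = 0.116, edgeR) and in 4 of 12 fits that left out 1 library. FYN fell more with etoposide in DAXX_KO (−0.71) than in WT of the DAXX series (−0.19, not called), with an interaction of −0.52 (adjusted p = 0.00418, edgeR).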

How the results depend on the processing

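Of 72 tested differences of members 28 were called, and 24 of these kept their direction and call in every alternative that was tested. Scaling by library totals alone shifted all genes by 0.18 in DAXX_KO control cells, by −0.11 for etoposide in DAXX_KO and in the DAXX interaction, by 0.12 in the difference between the knockouts, and by less than 0.1 in the other comparisons within a series. Under it YES1 in DAXX_KO control cells was 0.18 and FRK in ATRX_KO with etoposide 0.047, and with at least 10 counts in every library YES1 was 0.016. The count called with etoposide in WT of the DAXX series was 2 with library totals alone, with all 24 libraries in 1 model and with only the groups compared, where FYN passed, and 1 to 2 with single libraries left out. In DAXX_KO it was 2 to 4 and for the ATRX interaction 0 to 1 with single libraries left out. The replicate numbers pair no libraries, and the replicate block turned LCK in the DAXX interaction to 0.051, took LCK in ATRX_KO control cells to an adjusted p of 0.0543 and changed no other call, so 4 of 6 members were called there. With only the groups compared, LCK was not tested.

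With single libraries left out, differences that turned direction ranged as follows, and none of them was called in the full data. In DAXX_KO control cells YES1 ranged from −0.053 to 0.028 and LCK from −0.29 to 0.95. FRK for etoposide in DAXX_KO ranged from −0.37 to 0.080, YES1 in DAXX_KO with etoposide from −0.19 to 0.035, and in ATRX_KO with etoposide LCK from −0.64 to 0.099 and FRK from −0.28 to 0.33. In the DAXX interaction SRC ranged from −0.21 to 0.16, YES1 from −0.19 to 0.041, LYN from −0.28 to 0.045 and LCK from −0.50 to 0.74. In the ATRX interaction SRC ranged from −0.031 to 0.13, FYN from −0.023 to 0.19, YES1 from −0.0021 to 0.18, LYN from −0.12 to 0.082 and FRK from −0.53 to 0.075. The FGR bound in WT of the DAXX series was 4.26 to 6.80 with single libraries left out. The causes were not tested. At the depth of these libraries LCK, FRK and FGR in control cells are the limit.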
